A study of Mus musculus with 4 samples.

Results

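The genes described here encode the subunits of the proteasome, together with its assembly chaperones, activators and inhibitor. They were chosen as the protein-coding genes whose symbol starts with Psm, followed by a letter from a to g and a number. Of the 22558 genes in the deposited count table, 49 met this rule, and 2 pseudogenes with such a symbol were left out by it. Psmc3ip met the rule by its symbol but encodes a cofactor of meiotic recombination, so 48 of the 49 genes belong to the proteasome system. The roles used for grouping are those of the subunits known from textbooks.

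RNA was sequenced from activated group 2 innate lymphoid cells (ILC2s), lymphocytes without antigen receptors that make type 2 cytokines, in 4 libraries. All mice were 6 weeks old, of the C57BL/6 background, and were given rmIL-33, an epithelial alarm cytokine, intranasally in 3 doses of 0.5 µg before their lungs were taken on day 4. WT replicates 1 and 2 came from C57BL/6 wild-type mice and ICAM-1 KO replicates 1 and 2 from mice deficient in the adhesion molecule ICAM-1 in all tissues (B6.129S4-Icam1 tm1Jcgr), with each library a pool of 4 mice. Cells were sorted as CD45+, lineage negative, ST2+ and CD127+ at a stated purity of at least 95%, and 10 ng of RNA entered each cDNA preparation. Since 2 pools stood for each genotype, p-values measure only the spread between these pools. Library totals ranged from 24796148 to 28782471 counts.

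Icam1, on chromosome 9 of mm10 from 21015985 to 21028817, had a normalized count of 84.2 ± 1.32 (SD, n = 2) in WT and 104 ± 8.77 (SD, n = 2) in the other group, with an adjusted p of 0.0745 from edgeR. Icam1 RNA was thus not lower in the libraries labeled ICAM-1 KO, and whether the counted exons lie in the altered part of the gene was not tested. These values are of RNA alone. For the protein, the paper states that these mice lack ICAM-1, citing flow cytometry of lung ILC2s after rmIL-33. The 13 ILC2 markers were detected in all 4 libraries. Their summed normalized count was 8095 and 8570 in WT and 6526 and 6701 in the libraries labeled ICAM-1 KO, a difference of -20.6%. The list held Il5 and Il13, which the paper reports as lower, beside genes such as Gata3. Its median log2 fold change was -0.14. Of these 13 genes 5 were lower and 1 was higher at an adjusted p under 0.05, and of 10 proliferation genes 2 were lower. Several lists of markers of other lung cells moved the opposite way. Of the markers tested, 10 of 10 endothelial, 9 of 10 macrophage and dendritic cell, 5 of 6 B cell, 4 of 7 T cell and 4 of 8 epithelial genes were higher at an adjusted p under 0.05, and none of these 5 lists had a lower gene. The summed macrophage and dendritic cell markers were 573 and 777 in WT against 1730 and 2396, and the B cell markers were 1030 and 2089 against 3980 and 5520. Of the eosinophil markers 2 of 4 were lower and 2 higher, and of the neutrophil markers 2 of 5 were higher. Among all genes tested, 4.97% were lower and 8.8% higher at an adjusted p under 0.05 in edgeR. The epithelial marker Sftpb was at 0 in WT replicate 2 and the eosinophil marker Epx was at 0 in both libraries labeled ICAM-1 KO. The neutrophil marker Ly6g was also at 0 in at least 1 library. The part of these cells in the results below was not tested, and in such bulk samples fewer cells of a type and less RNA per cell cannot be told apart.

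The proteasome is the protease that degrades ubiquitin-tagged proteins in the cytosol and nucleus. Its 20S core is a barrel of stacked rings, in which α subunits form the outer gates and β subunits the inner proteolytic chambers. The 19S regulator, made of a base with an ATPase ring and a lid that removes ubiquitin, binds the ends of the barrel, unfolds substrates and feeds them in. Lymphocytes, and other cells exposed to interferon-γ, replace the constitutive catalytic subunits by immunoproteasome subunits, which shift the cleavage pattern toward peptides that fit MHC class I.

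In the libraries labeled ICAM-1 KO 14 genes fell, none rose, and nearly all fitted log2 fold changes were negative. The 48 genes tested were 47 of the proteasome system and Psmc3ip. Of these 48 genes, 47 had a negative log2 fold change, against 48.8% of all genes tested. The median of the 48 was -0.27, with a range from -0.50 for Psmd9 to 0.00 for Psme4. In the quasi-likelihood test of edgeR, adjusted by Benjamini-Hochberg over all 11711 genes, 14 of the 48 (29.2%) were lower at an adjusted p under 0.05 and none was higher, whereas 4.97% of all genes tested were lower and 8.8% were higher. At an unadjusted p under 0.05, 29 of the 48 genes were lower, against 13.1% of all genes, and 0 were higher, against 17.1%. None of the 48 was past a 2-fold change, which 0.538% of all genes passed downward and 4.94% upward with an adjusted p under 0.05. The median percent change was -16.9%.

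For most of these genes the groups were further apart than the libraries within them. Both libraries labeled ICAM-1 KO lay below both WT libraries for 44 of the 48 genes, a pattern found in 31.3% of all genes tested, none had the opposite pattern, found in 28.3% of all genes, and the groups overlapped for Psmb9, Psmd11, Psme4 and Psmc3ip. The median gap between the 2 libraries of a group was 0.0973 on the log2 scale in WT and 0.0727 in the libraries labeled ICAM-1 KO. The lowest of the 4 libraries was ICAM-1 KO replicate 1 for 31 genes, ICAM-1 KO replicate 2 for 16 and WT replicate 1 for Psme4 alone. The highest was WT replicate 2 for 30 genes and WT replicate 1 for 18. Over all 49 genes, the summed normalized count was 9362 and 9701 in WT against 7571 and 7914, a difference of -18.8%. These genes held 1.04% and 1.06% of all counts in WT and 0.879% and 0.905% in the libraries labeled ICAM-1 KO.

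**Figure D1:**
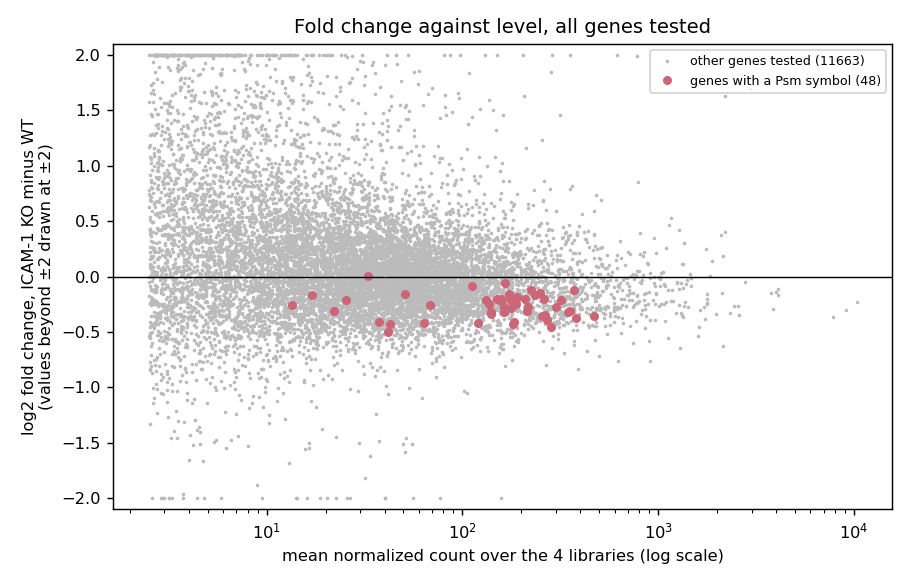
Mean normalized count over the 4 libraries (log axis) against the log2 fold change of the libraries labeled ICAM-1 KO over WT for each gene tested, with the 48 tested genes that met the symbol rule in red and other genes in gray. The red points form a band with a median of -0.27, while the median of all 11711 genes is 0.01.

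Most proteasome genes are highly expressed, and highly expressed genes as a whole were shifted downward. Among the 1965 genes whose normalized counts averaged at least 100, a stratum chosen after the data had been seen, the median log2 fold change was -0.10, 65.2% had a negative value, 15.1% were called lower and 52.8% had both libraries labeled ICAM-1 KO below both WT libraries. The 37 proteasome genes in that stratum had a median of -0.27, with 12 called lower and 35 without overlap.

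The count of called genes was lower whichever library was left out. Such a fit keeps only 1 library in a group, and fewer of all genes tested passed as well. The count therefore cannot show dependence on a particular library. With edgeR it was 2 without WT replicate 1, 0 without WT replicate 2, 2 without ICAM-1 KO replicate 1 and 9 without ICAM-1 KO replicate 2. At an unadjusted p under 0.05, 27, 19, 16 and 28 of the 48 genes were lower in these fits in that order, against 10.7%, 9.95%, 8.72% and 10.5% of all genes. Over these fits the share of all genes called lower ranged from 1.35% to 3.31%, and the median of the 48 genes stayed between -0.31 and -0.24.

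Short promoter stretches of 4 of the called genes are shown because they hold the core of a motif known to bind regulators of the proteasome or of interferon responses. The 300-base windows around the RefSeq start sites (GRCm38.p6, 250 bases before to 50 after) were available for 41 of the 49 genes. They were searched on both strands for TGACNNNGC, the core of the antioxidant response element bound by NFE2L1 and NFE2L2. Of these factors, NFE2L1 drives proteasome genes when proteasome activity is low. Also searched was the core of the interferon-stimulated response element (a repeat of GAAA with any pair of bases between). The STAT site TTCNNNGAA, CCAAT and GGGCGG completed the search. Capitals mark the match, letters run 5′ to 3′ on the strand of the gene, and each line gives the region and then the sequence.
Psmb5, antioxidant element core, chr14:54618024-54618052, minus strand: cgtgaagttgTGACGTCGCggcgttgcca
Psmd9, antioxidant element core, chr5:123228149-123228177, plus strand: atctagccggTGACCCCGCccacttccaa
Psmd9, interferon element core, chr5:123228021-123228050, plus strand: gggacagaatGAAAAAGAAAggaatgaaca
Psmb3, interferon element core on the opposite strand, chr11:97703261-97703290, plus strand: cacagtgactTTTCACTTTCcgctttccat
Psmb8, STAT site, chr17:34198088-34198116, plus strand: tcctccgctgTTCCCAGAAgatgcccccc

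The antioxidant core was present in 6 of the 41 genes (14.6%), namely Psmb5, Psmb6, Psmc6, Psmd9, Psmd12 and Psme4, against 12.4% of all 32851 windows. The interferon core occurred in 5 genes (12.2%), namely Psmb3, Psmd4, Psmd9, Psme1 and Psmg4, against 3.44% of all windows. A STAT site was found in 3 genes (7.32%), namely Psmb8, Psmd2 and Psmg1, against 8.3%. CCAAT was held by 14 genes (34.1%) against 37.4% of all windows, and GGGCGG by 23 genes (56.1%) against 35.7%. In Psmd9 the end of the antioxidant core overlaps a GGGCGG match on the opposite strand, and in Psmd9 and Psmb8 the stretches shown lie inside the span that the deposited table gives for the gene, since the RefSeq start used lies downstream of the start of that span. The 10 called genes with a window included 2 with the antioxidant core and 2 with the interferon core. A gene counted if any of its windows matched (44 windows for the 41 genes), whereas the shares of all windows count single windows. A match of letters is a description and no evidence of binding.

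In the α ring, whose subunits gate the entry to the core, 3 of 7 genes fell. Calls in this and the groups below stand beside 4.97% of all genes tested and 15.1% of those averaging at least 100 normalized counts. Psma5 fell, with normalized counts of 213 and 209 in WT against 153 and 158 (log2 fold change -0.41 with a standard error of 0.0870, adjusted p = 0.0171 from edgeR). Psma7 stood at 396 and 381 in WT and at 290.2 and 319 in the libraries labeled ICAM-1 KO, with a log2 fold change of -0.32. For both genes the lower WT value exceeded the higher value of the other group. Psma4 was at 230.4 and 246 against 189.9 and 187, with a log2 fold change of -0.31. The adjusted p was 0.0436 for Psma7 and 0.0454 for Psma4 in edgeR. Psma2, Psma3, Psma1 and Psma6 had log2 fold changes between -0.38 and -0.17 without passing the test, and none of their groups overlapped. Psma3 lay just outside the threshold, with an adjusted p of 0.0530. The ring summed to 2194 and 2329 normalized counts in WT and 1749 and 1852 in the libraries labeled ICAM-1 KO, a difference of -20.4%.

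Psma8 encodes the α subunit used in spermatogenesis in place of Psma7. It was not tested, with counts of 0 and 8 in WT and 4 and 22 in the libraries labeled ICAM-1 KO, and the count of 0 in WT replicate 1 allows up to 3 counts.

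The β subunits without a catalytic site hold the inner rings together, and 2 of these 4 genes fell. Psmb3 had the smallest adjusted p of all proteasome genes, and its normalized counts were 328 and 334 in WT against 231 and 244 (log2 fold change -0.45 with a standard error of 0.0843, adjusted p = 0.0109 from edgeR). Its groups did not overlap, and the interferon core printed above is in its promoter window. Psmb2 was at 295 and 301 in WT and at 222 and 237 in the libraries labeled ICAM-1 KO, with a log2 fold change of -0.35 and an adjusted p of 0.0314 in edgeR. Psmb1 and Psmb4 gave -0.27 and -0.25 without passing the test.

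The catalytic subunits of the constitutive core are Psmb6, with caspase-like activity, Psmb7, with trypsin-like activity, and Psmb5, with chymotrypsin-like activity, and 2 of the 3 genes fell. Psmb5, on chromosome 14 from 54614119 to 54618022, was at 201 and 217 normalized counts in WT and at 156 and 149 in the libraries labeled ICAM-1 KO (log2 fold change -0.43 with a standard error of 0.0899, adjusted p = 0.0166 from edgeR). It is one of the genes with the antioxidant core printed above. Psmb7, on chromosome 2 from 38588036 to 38644087, stood at 151 and 166 in WT against 123 and 123 in the other group (log2 fold change -0.34 with a standard error of 0.0945, adjusted p = 0.0456 from edgeR). Psmb6, on chromosome 11 from 70525367 to 70527858, was at 195 and 212 against 176 and 176 and did not pass the test, with a log2 fold change of -0.18 and an adjusted p of 0.207 in edgeR. For all 3 genes both libraries labeled ICAM-1 KO lay below both WT libraries, and the call of Psmb7 rested on a value close to the threshold.

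In the immunoproteasome Psmb8 replaces Psmb5, Psmb9 replaces Psmb6 and Psmb10 replaces Psmb7. Of these genes Psmb8 and Psmb10 fell and Psmb9 did not pass the test. Psmb8, on chromosome 17 from 34197721 to 34201454, had the highest normalized count of all proteasome genes. It was at 527 and 532 in WT and 397 and 417 in the libraries labeled ICAM-1 KO (log2 fold change -0.35 with a standard error of 0.0814, adjusted p = 0.0239 from edgeR). Psmb10, on chromosome 8 from 105935735 to 105938444, was at 142 and 135 against 101 and 102 (log2 fold change -0.42 with a standard error of 0.0941, adjusted p = 0.0223 from edgeR). Psmb9, on chromosome 17 from 34181988 to 34187764, overlaps the peptide transporter gene Tap1 on the opposite strand. Its groups overlapped, at 109.6 and 124 in WT against 101 and 116, with a log2 fold change of -0.08, a standard error of 0.115 and an adjusted p of 0.681 in edgeR. Reads shared with Tap1 could enter either gene, since the strand setting of the counting is not given in the sources used here. Tap1 itself had a log2 fold change of -0.16 and did not pass the test, with an adjusted p of 0.269.

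**Figure D2:**
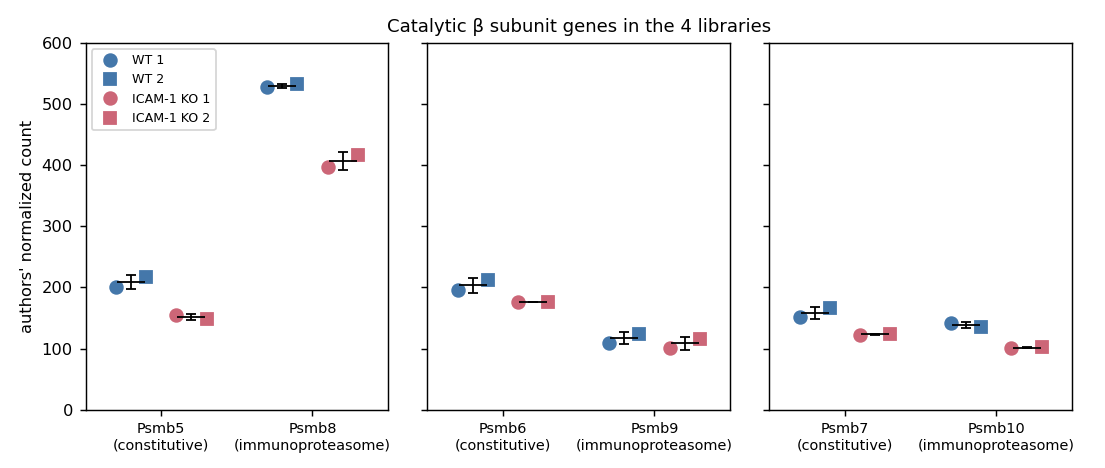
Normalized counts of the 3 constitutive and the 3 immunoproteasome catalytic genes in each library, with WT in blue, the libraries labeled ICAM-1 KO in red, and black bars for the mean and SD of the 2 libraries of a group. For Psmb9 alone the red and blue points overlap, at 101 and 116 against 109.6 and 124.

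The balance of immunoproteasome over constitutive subunits was compared as ratios of counts per kilobase of exon within each library, which do not depend on scaling between libraries. The ratio of Psmb8 to Psmb5 was 0.698 and 0.653 in WT and 0.678 and 0.745 in the libraries labeled ICAM-1 KO. For Psmb9 to Psmb6 it was 0.288 and 0.299 against 0.293 and 0.337, and for Psmb10 to Psmb7 it was 1.88 and 1.63 against 1.65 and 1.67. The groups overlapped for each pair. Summed over both sets of 3 genes, the ratio was 0.723 and 0.671 in WT and 0.673 and 0.727 in the libraries labeled ICAM-1 KO, a log2 difference of 0.01 against an SD of 0.0760 and 0.0788 within the groups. An exact permutation test of 2 against 2 cannot give a two-sided p below 0.333, so these differences were not tested.

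The level of such a ratio depends on the length used. Per kilobase of coding sequence, Psmb8 to Psmb5 was 2.51 and 2.35 in WT and 2.44 and 2.68 in the libraries labeled ICAM-1 KO, and the summed ratio was 1.38 and 1.29 against 1.28 and 1.38. The log2 difference between the groups was -0.01 for the sum by coding length. Per kilobase of exon the highest WT means of all proteasome genes were 273 RPKM for Psmb2, 256 for Psmb5 and 225 for Psma6, whereas per kilobase of coding sequence Psmb8 with 706, Psma2 with 678 and Psmb3 with 595 led. Of the genes tested, Psme4 was lowest on both scales, with 4.34 and 6.58.

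The 19S base carries 6 ATPases that unfold the substrate, and none of these genes passed the test. Their log2 fold changes ranged from -0.28 for Psmc2 to -0.16 for Psmc1 with a median of -0.21. In all 6 both libraries labeled ICAM-1 KO lay below both WT libraries. That pattern was found in 31.3% of all genes tested and in 52.8% of those averaging at least 100 normalized counts. The other base genes encode the scaffolds Psmd1 and Psmd2 and the ubiquitin receptor Psmd4. They gave -0.15, -0.12 and -0.20 without passing the test, and their groups did not overlap either. Psmd2 had the highest WT mean of the 19S genes, with normalized counts of 392 and 387 in WT and 358 and 346 in the libraries labeled ICAM-1 KO.

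Of the 8 lid genes, Psmd8 and Psmd7 fell. Psmd8, which encodes a lid subunit needed for its assembly, was at 295 and 281 normalized counts in WT and at 217 and 224 in the libraries labeled ICAM-1 KO (log2 fold change -0.36 with a standard error of 0.0849, adjusted p = 0.0275 from edgeR). Psmd7, the inactive partner of the deubiquitinase Psmd14, was at 175 and 192 against 144 and 144 (log2 fold change -0.32 with a standard error of 0.0924, adjusted p = 0.0494 from edgeR). Psmd14, which removes ubiquitin chains from substrates, had a log2 fold change of -0.22 and did not pass the test. Psmd6 lay just outside the threshold with an adjusted p of 0.0531. At the other end, Psmd11 had a log2 fold change of -0.06, and its groups overlapped at 165 and 177 in WT against 149.9 and 171. The lid summed to 1519 and 1522 in WT and 1219 and 1277 in the libraries labeled ICAM-1 KO, a difference of -17.9%.

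Core and regulator were also set side by side. Of the 17 genes of the 20S rings 9 fell (52.9%), with a median log2 fold change of -0.32. Of the 17 genes of the 19S base and lid 2 fell (11.8%), with a median of -0.21. Among all genes tested 4.97% were called lower, and among those whose normalized counts averaged at least 100 it was 15.1%. In a comparison added after the data had been seen, the summed counts per kilobase of exon of the 20S genes within each library were 1.85 and 1.92 times those of the 19S genes in WT and 1.76 and 1.78 times in the libraries labeled ICAM-1 KO. The ratio was therefore lower in both of the latter, by a log2 difference of -0.09, with an SD of 0.0356 in WT and 0.0140 in the libraries labeled ICAM-1 KO. With 2 libraries a group no permutation test can pass a threshold of 0.05, and the 2 gene groups are not shown to differ. The median WT level was 129 RPKM for 20S genes and 66.6 RPKM for 19S genes per kilobase of exon.

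**Figure D3:**
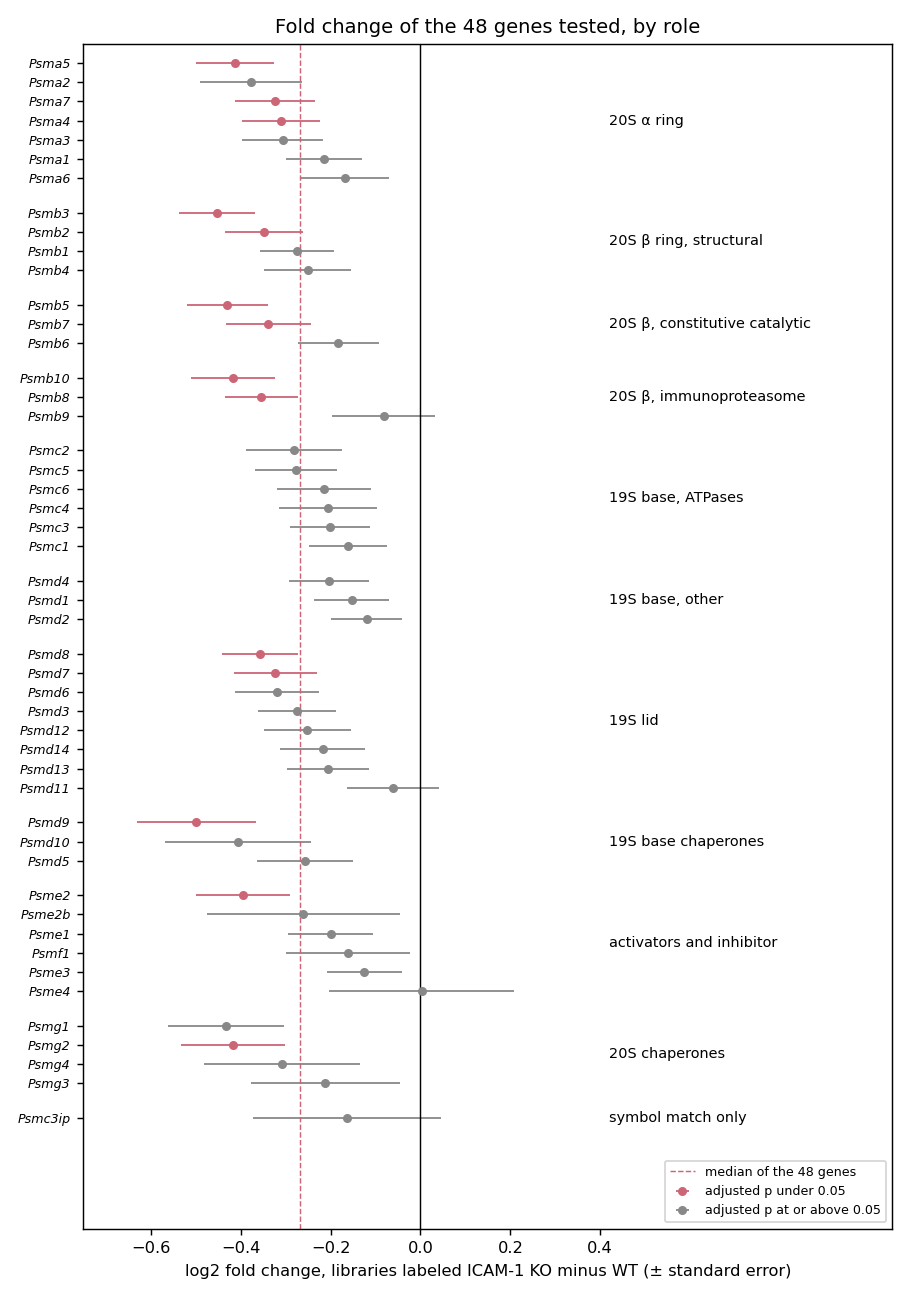
Log2 fold change of the libraries labeled ICAM-1 KO over WT with its standard error for each of the 48 genes tested, grouped by role, with genes at an adjusted p under 0.05 in red. Red points are found among 9 of the 17 core genes and 2 of the 17 base and lid genes. Of all genes tested 4.97% were lower at that threshold, and the dashed line marks the median of -0.27.

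Assembly chaperones are not part of the finished particle, and 2 of these 7 genes fell. Psmd9, a chaperone of the base, had the most negative value of all proteasome genes, with normalized counts of 50.5 and 47.3 in WT against 35.3 and 32.7 (log2 fold change -0.50 with a standard error of 0.132, adjusted p = 0.0386 from edgeR). It holds both cores printed above, and it overlaps other genes on the opposite strand, Hpd among them. Psmg2, which pairs with Psmg1 to start the α ring, was at 73.5 and 72.7 in WT and at 51.2 and 56.2 in the libraries labeled ICAM-1 KO (log2 fold change -0.42 with a standard error of 0.115, adjusted p = 0.0442 from edgeR). Psmg1 gave -0.43 with an adjusted p of 0.0568. Psmd10 and Psmd5, the other chaperones of the base, gave -0.41 and -0.26, and Psmg4 and Psmg3 gave -0.31 and -0.21, none of which passed the test. All 7 had both libraries labeled ICAM-1 KO below both WT libraries, a pattern found in 31.3% of all genes tested. Their summed normalized count was 339 and 345 in WT and 258 and 263 in the libraries labeled ICAM-1 KO, a difference of -23.9%.

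Activators open the core without ubiquitin or ATP. Psme1 and Psme2 form the interferon-induced PA28αβ cap of the cytosol, Psme3 the PA28γ cap of the nucleus and Psme4 the PA200 cap, while Psmf1 encodes PI31, first described as an inhibitor of the core. Of the 6 genes of this group, Psme2 alone fell (16.7%), against 4.97% of all genes tested and 15.1% of those averaging at least 100 normalized counts. It was at 296 and 320.1 normalized counts in WT and at 212 and 248 in the libraries labeled ICAM-1 KO (log2 fold change -0.39 with a standard error of 0.104, adjusted p = 0.0377 from edgeR). Its partner Psme1 was at 275 and 290.1 against 228 and 256, with a log2 fold change of -0.20 and an adjusted p of 0.193 in edgeR. Neither gene had overlapping groups, and the difference between these fold changes was not tested. The pair lies on chromosome 14, Psme1 from 55578123 to 55581529 and Psme2 from 55587441 to 55591113.

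Psme3 was at 236 and 234 in WT and at 215 and 207 in the libraries labeled ICAM-1 KO, with a log2 fold change of -0.12. Psme4 was at 26.0 and 40.1 against 34.0 and 31.2, so that the WT libraries enclosed the others, with a log2 fold change of 0.00, a standard error of 0.205 and an adjusted p of 0.996 in edgeR. Psmf1 was at 60.0 and 48.5 in WT against 48.4 and 46.8, with a log2 fold change of -0.16. None of these passed the test, and the groups of Psme3 and Psmf1 did not overlap, those of Psmf1 by a narrow margin. Psme2b, a near copy of Psme2 that can share its reads, was at 15.2 and 14.5 against 12.6 and 11.8 and is uncertain for that reason. Psmc3ip, the gene matched by symbol alone, was at 16.9 and 19.6 in WT and at 14.6 and 17.4 in the libraries labeled ICAM-1 KO, with a log2 fold change of -0.16.

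**Figure D4:**
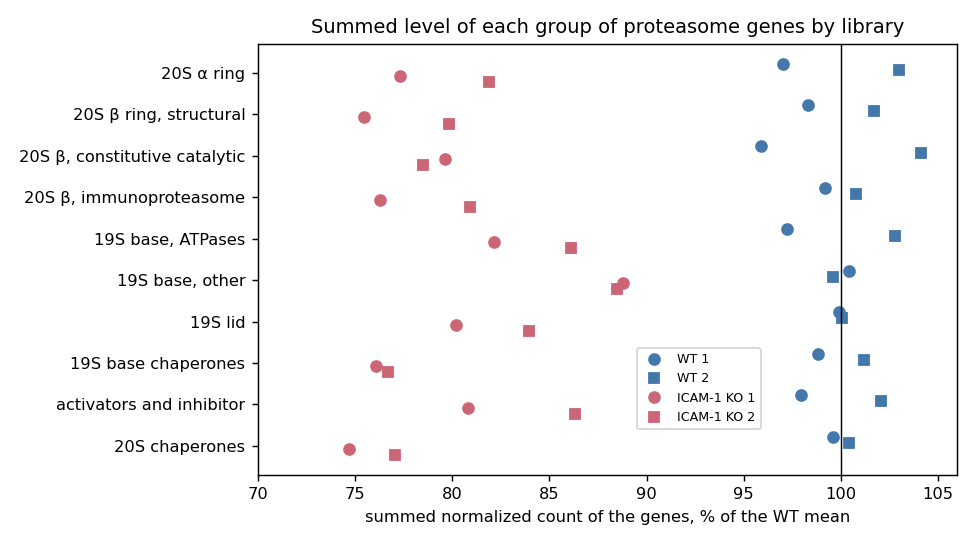
Summed normalized counts of each group of proteasome genes in each library as a percentage of the mean of the 2 WT libraries, with WT in blue and the libraries labeled ICAM-1 KO in red. Psma8 and Psmc3ip are not drawn, and in each of the 10 groups drawn both red points lie left of both blue points, with differences of the group means from -11.4% for the other base genes to -24.1% for the 20S chaperones.

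Genes that act with the proteasome but carry no such symbol were taken from a list of 46, of which 42 were tested. Of these 42 genes 4 fell and 2 rose, where 4.97% and 8.8% of all genes tested did, and the median log2 fold change was -0.05. Rad23b, a shuttle factor that carries tagged proteins to the proteasome, fell with a log2 fold change of -0.59 (adjusted p = 0.0248 in edgeR). Uchl5, a deubiquitinase bound to the 19S base, fell by 0.38 on the log2 scale, with an adjusted p of 0.0345 in edgeR. Among the genes that rose was the kinase gene Jak2, at 0.32 with an adjusted p of 0.0365.

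Subunits and assembly factors without a Psm symbol lay in the range of the proteasome genes or near 0. Pomp, the maturation factor of the core, gave -0.32 with an adjusted p of 0.0594, and Sem1, a small lid subunit, gave -0.30 with 0.0764 in edgeR, while the ubiquitin receptor Adrm1 gave -0.03. Neither Nfe2l1, a known regulator of proteasome genes, nor Irf1, a known regulator of the interferon-induced ones, passed the test. Nfe2l1 had a log2 fold change of -0.03 and an adjusted p of 0.930, and Irf1 had 0.34 and 0.0890, both from edgeR. The groups overlapped for Nfe2l1. For Irf1 both libraries labeled ICAM-1 KO lay above both WT libraries, as for 28.3% of all genes tested. None of the 7 genes tested for transcriptional control of the proteasome passed the test in either direction.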

How the data were processed

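Activated lung ILC2s of 2 WT and 2 ICAM-1 KO pools were analyzed, grouped by the sample labels. The authors made cDNA with a SMARTer low-input kit, aligned reads with STAR to mm10 (GENCODE M20) and deposited expected counts per gene from the E/M method of Partek. The tools in the submitters' processing notes are CASAVA 1.8.2, STAR 3.5.3 and Partek, and the STAR version in the methods differs. The authors also deposited a normalized signal, equal to the count plus 1 times a factor that sets the upper quartile of each library to 41.9, which is called the normalized count here. Whether counting used strand is not given in the sources used here. Of the 49 genes, 24 overlap another gene, 7 of the 14 called ones among them.

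The expected counts were rounded and tested in R 4.3.3 with edgeR 4.0.16 (glmQLFit with legacy set to FALSE, glmQLFTest) and upper quartile factors, over 11711 genes (normalized counts with a mean of 1 or more and a sum of 10 or more). The study's own test (GSA) was not run. A simulation with known changes was also run through the fit, and its outcome is not given here. RPKM was computed from the counts and the union of exons or the longest coding sequence of GENCODE M21. Gene ends were moved by 1 base from the deposited table to match the annotation.

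The proteasome genes, the roles, the partner and marker lists and the motifs were chosen with earlier results of these data known. Values per library are given by rule for catalytic and activator genes, called genes and genes too low to test, and were added for Psmd2, Psmd11 and Psmc3ip after their values were seen. The alternatives were TMM factors, DESeq2 1.42.0, limma 3.58.1, other filters, the older quasi-likelihood form, a replicate block, 1 library left out, a 2-fold threshold and, added after the data had been seen, total-count scaling, coding length and the ratio of 20S to 19S genes. Of the 44 promoter windows, 38 have the 30 bases after their start in a transcript of the gene. A promoter window of Psma8, Psmb1, Psmb2, Psmb7, Psmc3, Psmd3, Psmd7 and Psmg2 was not used here. Some genes of the partner list are not reported here by name.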

Additional observations from a re-analysis of the deposited data

How the results depend on the processing

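All alternatives kept the median log2 fold change of the tested genes between -0.31 and -0.23, and at least 46 of them kept a negative sign, but the number called lower (14) varied. It was 4 with no filter on low counts, 7 with the older quasi-likelihood form, 9 with total-count scaling and 0 at 2-fold, and 0 to 9 with 1 library left out. The share of all genes called lower was 0.907%, 4.09% and 3.92% in the first 3 of these. The number was 16 with TMM (5.17% of all genes), 21 with DESeq2 (7.94%), 20 with limma (6.50% or 6.19% by pseudocount), 11 with filterByExpr (3.30%) and 16 with the replicate block (5.45%), 13 of which were among the 14. The labels' replicate numbers are not known to pair the libraries, and the deviations of same-numbered libraries had a correlation of -0.058 across genes. Psma5, Psmb3, Psmb5 and Psmb8 were called in all 9 alternatives that kept every library and the threshold. The sign of Psme4 changed in some alternatives, as did those of Psmb9 and Psmd11. Of the partner genes, the number called lower (4) was 8 with DESeq2, 7 with the replicate block, 0 with no filter, 0 at 2-fold and 0 to 5 with 1 library left out, and the number called higher (2) was 4 with the replicate block, 1 with the older form, 0 with no filter, 0 with filterByExpr, 0 at 2-fold and 0 to 2 with 1 library left out. A stricter threshold lowers such counts by construction, and the causes of the other changes were not tested. The differences between groups in the ratios of subunits moved by less than the larger SD within a group, that of the summed immunoproteasome ratio from -0.05 to 0.06 across 0, while the level of a ratio depends on the length used. With 2 libraries a group, the standard errors of the log2 fold changes of the 48 genes ranged from 0.0797 to 0.215.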
